A study of Homo sapiens with 35 samples.

Results

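BE(2)-C cells, a human neuroblastoma line that carries extra copies of MYCN, were compared directly after 72 h in either of a pair of differentiating agents. The comparison holds 6 of the 35 arrays of the series: 3 from cells given all-trans retinoic acid (ATRA) at 5 uM and 3 from cells given valproic acid (VPA) at 1 mM, taken by treatment and time from the sample labels. All genes with a probe set of their own were members, 11882 in number. The rest of the series, at 6 h, 24 h and 72 h, is cells given DMSO as the vehicle, ATRA alone, VPA alone or both, in 12 groups of 3 arrays except DMSO at 72 h with 2. All cells grew in the same serum-containing medium, and the purpose of the series was a gene expression signature that reads out differentiation of neuroblastoma. Every group comes from this 1 line and each agent from 1 dose, and whether the doses match in strength was not tested. The labels call the replicates triplicates without naming separate cultures, so p-values measure only the spread between these arrays, which may be technical.

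Retinoic acid enters cells, is carried by binding proteins such as CRABP2 and activates nuclear receptors of the RAR and RXR families, which sit on DNA as pairs and switch from repressing to activating nearby genes. Among the best known of these genes are those for the CYP26 enzymes, which break retinoic acid down, for RARB and for the HOX clusters. Valproic acid is a short branched fatty acid used against epilepsy, and it inhibits class I and IIa histone deacetylases, so that histones gain acetyl groups across much of the genome. In neuroblastoma, both agents are known to slow division and to promote a more neuronal shape.

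Levels are the deposited intensities, on a linear scale. Differences are log2 of the intensity plus 1 with ATRA minus that with VPA, so positive values mean higher with ATRA, and ± after a log2 value is its standard error. A gene passed when its p from limma, adjusted by Benjamini-Hochberg over all 11882 genes, was below 0.05. The 6 arrays were not alike in their distributions: the upper quartile of intensity was 289.7 to 318.9 with ATRA and 330.6 to 333.8 with VPA, and the lower quartile 22.9 to 23.6 against 21.9 to 22.0. Across genes, each array correlated with the others of its group at a mean of 0.9938 to 0.9941 with ATRA and 0.9965 to 0.9967 with VPA. The log2 3'/5' signal ratio of the GAPDH and ACTB control probe sets, which rises as RNA or labelling is shortened, was 1.99, 1.84 and 1.64 with ATRA and 1.13, 0.91 and 1.23 with VPA. These ratios did not overlap, and the mean difference of 0.73 had an exact two-sided permutation p of 0.1, the smallest that 3 arrays against 3 allow. The part of this shift in the gene differences was not tested beyond a fit with that ratio as a covariate, called the covariate fit below. Affymetrix values here carry no detection calls, so a fold from a level near the lower quartile depends on background.

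After 72 h, 3940 genes differed, 33.2% of those tested. Of these, 1458 genes were higher with ATRA (12.3%) and 2482 with VPA (20.9%). The counts of list members given below stand against these shares. Most differences were small: 386 of the genes that passed (3.25%) differed at least 2-fold, 137 of them higher with ATRA (1.15%) and 249 with VPA (2.1%). At 4-fold the order turned, with 27 genes higher with ATRA and 18 with VPA. The 3 ATRA arrays all lay above the 3 VPA arrays for 2021 genes (17%), and all below for 3006 (25.3%). Of the 7942 genes that did not pass, 6528 had a 95% interval of the difference within 0.5 log2 units on either side of 0.

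The balance of directions depended on level. Among the brightest 33.3% of genes by mean intensity, 12.3% were higher with ATRA and 38.7% with VPA, with a median difference of -0.16. Among the dimmest 33.3% the shares were 9.87% and 1.84%, with a median of 0.09. When the arrays were quantile-normalized a second time, 3539 genes passed, 1815 higher with ATRA and 1724 with VPA, so the share higher with ATRA moved from 37% to 51.3%.

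**Figure D1:**
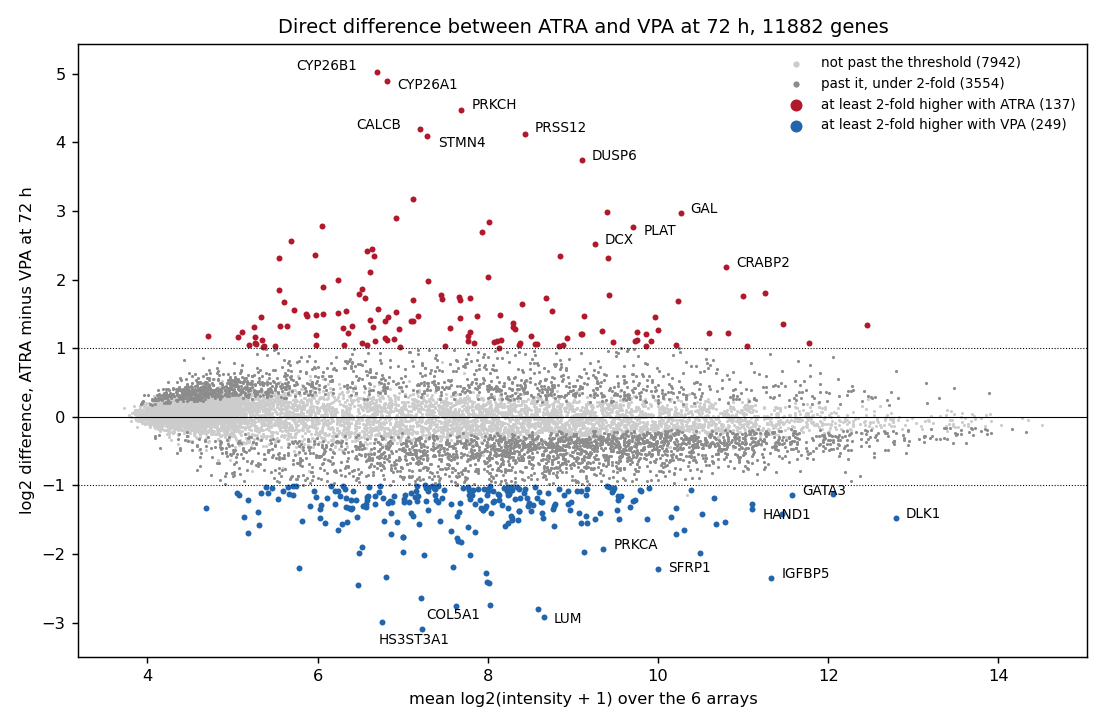
Each point is 1 of 11882 genes, with its mean log2 intensity over the 6 arrays on the horizontal axis and the log2 difference, ATRA minus VPA at 72 h, on the vertical axis. Colours mark the 137 genes past 0.05 and at least 2-fold higher with ATRA, the 249 higher with VPA, the 3554 that passed below 2-fold and the 7942 that did not pass; bright genes lie more often below 0.

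The genes that break down retinoic acid held the largest differences of the comparison. CYP26A1 read 513, 579 and 771 on the 3 ATRA arrays and 17.8, 19.3 and 21.8 on the VPA arrays. CYP26B1, the second of these cytochrome P450 enzymes, read 612, 727 and 463 with ATRA and 17.04, 19.8 and 14.9 with VPA. Every ATRA array was far above every VPA array for both genes, and the VPA levels of both lay under the lower quartile of an array. The log2 difference was 5.03 ± 0.14 for CYP26B1 (adjusted p = 1.2e-18) and 4.90 ± 0.17 for CYP26A1 (adjusted p = 9.3e-17). CRABP2, which hands retinoic acid to its receptors, read 3473, 3942 and 3978 with ATRA and 813, 788 and 901 with VPA, a difference of 2.19 ± 0.10 (adjusted p = 8.1e-15). The groups did not overlap. DHRS3, a reductase that returns retinal to retinol, was 63.1 ± 15.5 with ATRA and 31.6 ± 7.20 with VPA (SD, n = 3 each; 0.97 ± 0.19). Of the 14 measured genes for turnover and binding of retinoic acid, 5 were higher with ATRA, 2 higher with VPA and 7 did not pass, with a median of 0.12 beside 0.00 for all genes. The fifth higher with ATRA was STRA6, the retinol transporter, at 0.34, whose call was lost in the covariate fit (0.18) and without the second ATRA array or the second or the third VPA array (0.31 to 0.34). RDH14, a retinol dehydrogenase, was higher with VPA at -0.51. The count higher with VPA was 1 under the second quantile normalization and without the third ATRA array or the first or the second VPA array.

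The nuclear receptors differed less. RARA read 317, 323 and 318 with ATRA and 170.0, 133 and 141 with VPA (1.11 ± 0.10), and RARB read 35.5, 35.0 and 28.9 against 18.4, 17.6 and 17.2 (0.86 ± 0.10). ATRA arrays were the higher in both, although RARB lay at the dim end throughout and came to 0.29 as the mean of its probe sets. RXRA, the partner of the RARs, was higher with VPA, at 322 ± 8.26 against 189 ± 13.7 with ATRA (SD, n = 3 each; -0.76 ± 0.16). The fatty acid receptor PPARD was higher with ATRA at 0.63, and the coactivator NCOA1 higher with VPA at -0.57. Of 15 measured receptors and coregulators, 5 were higher with ATRA, 4 with VPA and 6 did not pass. In the covariate fit 3 were higher with ATRA. As means of probe sets the differences were 0.71 for RARA, -0.45 for RXRA, 0.30 for PPARD and -0.31 for NCOA1.

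RAR and RXR pairs bind direct repeats of a 6-base element, and a spacing of 5 bases is the classic form. The 250 bases before the start of each gene in RefSeq (GRCh38.p14) were searched on both strands for 2 elements in direct repeat with 5 bases between them, each element being AGGTCA itself, its relative AGTTCA, the form GGGTCA or the form GGTTCA. The repeat occurred in 26 of 35116 windows, 0.074%. Among the 9591 measured genes with a window, 7 held it: CYP26A1 and RARB were higher with ATRA, none was higher with VPA, and 5 did not pass. Those were CYB5R2 at 0.02, HROB at 0.02, PANK2 at 0.10, PHF8 at 0.13 and TRIM31 at -0.09, named for the motif and not for their values. The windows of CYP26A1 (chr10:93073643-93073892) and RARB (chr3:25428013-25428262), both on the + strand, are shown because they join the motif to genes higher with ATRA. Capitals mark the elements.
CYP26A1: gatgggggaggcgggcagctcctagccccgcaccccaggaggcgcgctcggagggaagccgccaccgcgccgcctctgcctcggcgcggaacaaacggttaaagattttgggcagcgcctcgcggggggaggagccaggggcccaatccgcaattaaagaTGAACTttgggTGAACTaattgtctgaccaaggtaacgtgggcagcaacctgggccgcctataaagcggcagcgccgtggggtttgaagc
RARB: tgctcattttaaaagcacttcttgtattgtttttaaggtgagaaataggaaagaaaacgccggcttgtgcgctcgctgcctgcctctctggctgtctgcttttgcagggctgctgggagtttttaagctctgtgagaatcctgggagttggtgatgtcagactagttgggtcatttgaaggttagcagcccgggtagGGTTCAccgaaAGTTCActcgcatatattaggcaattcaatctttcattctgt
The repeat begins 90 bases before the CYP26A1 start and reads on the opposite strand, and begins 53 bases before the RARB start on the same strand. These are matches of letters in a window and show no binding. CYP26A1 and RARB were known retinoic acid targets before the search, so their matches are no separate evidence. Of all genes 12.3% were higher with ATRA, and 7 genes with the repeat are too few to set against that share. Of the 294 genes that differed at least 2-fold and had a window, CYP26A1 alone held the repeat.

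HOX genes and their TALE partners, which set position along the body axis and are retinoic acid targets in embryos, were higher with ATRA in 13 of 29 measured members, and higher with VPA in 1, and 15 did not pass, with a median of 0.26. The HOXD cluster stood at the top. HOXD4 read 212, 263 and 190.3 with ATRA and 39.3, 39.9 and 42.3 with VPA, with no overlap and a difference of 2.41 ± 0.11 (adjusted p = 6.7e-15). HOXD1 differed by 1.40 ± 0.12, HOXD9 by 1.28 ± 0.16, HOXD3 by 0.94 ± 0.12 and MEIS1, a TALE cofactor, by 0.90 ± 0.11. HOXD1, HOXD9 and HOXD3 differed by 0.74, 0.71 and 0.39 as means of their probe sets.

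**Figure D2:**
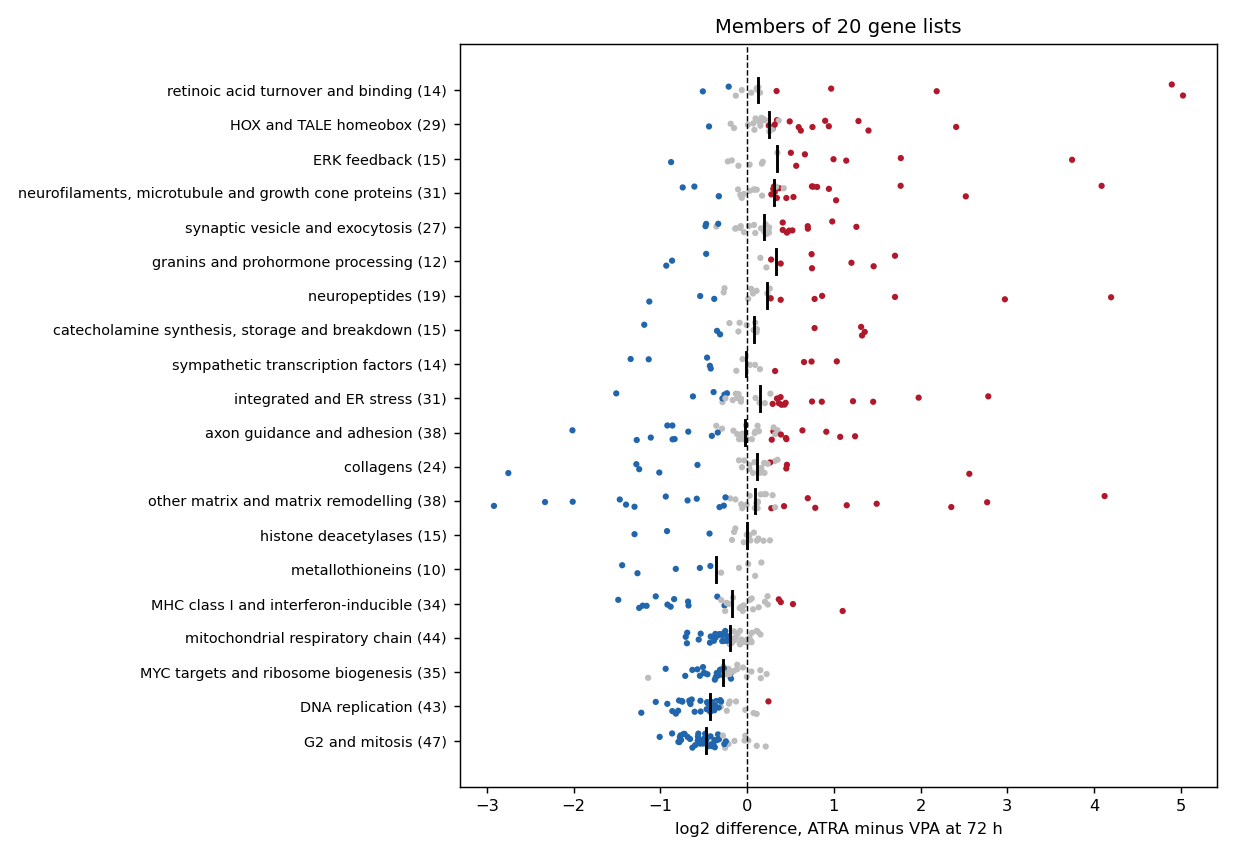
Each point is 1 measured gene of the 20 gene lists shown, placed by its log2 difference, ATRA minus VPA at 72 h; coloured points passed an adjusted p of 0.05 and grey points did not. Ticks mark list medians and the dashed line the median of all genes at 0.00; replication and mitosis genes lie mostly to the VPA side and the HOX, peptide and cytoskeleton lists mostly to the ATRA side.

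Beyond the retinoid genes, the largest difference in favour of ATRA was that of PRKCH, the eta isoform of protein kinase C. It read 898, 901 and 1126 with ATRA and 49.0, 40.5 and 39.5 with VPA (4.47 ± 0.12; adjusted p = 3.0e-19). CALCB, which encodes the beta form of calcitonin gene-related peptide, read 666, 614 and 614 against 29.5, 30.6 and 41.5 (4.20 ± 0.11; adjusted p = 2.4e-19). PRSS12, the synaptic protease neurotrypsin, read 1521, 1396 and 1406 against 80.4, 80.3 and 84.6 (4.12 ± 0.14; adjusted p = 2.8e-17). The groups lay more than 10-fold apart in each of these, with the ATRA arrays close together. STMN4, a neural stathmin that regulates microtubules, read 782, 449 and 763 with ATRA and 39.3, 36.9 and 34.8 with VPA (4.09 ± 0.16), with the second ATRA array below the other two and still far above the VPA arrays. DUSP6, a phosphatase that switches off ERK, read 1796, 2034 and 2227 against 139.9, 144 and 164 (3.75 ± 0.12), again without overlap. The remaining genes among the 15 with the largest differences were PTPRH at 3.17, the copper transporter ATP7A at 2.98, galanin (GAL) at 2.97, PLEKHA6 at 2.90, the microtubule-binding kinase DCLK1 at 2.84, the stress cytokine GDF15 at 2.78, tissue plasminogen activator (PLAT) at 2.77 and the small Maf factor MAFF at 2.69.

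**Figure D3:**
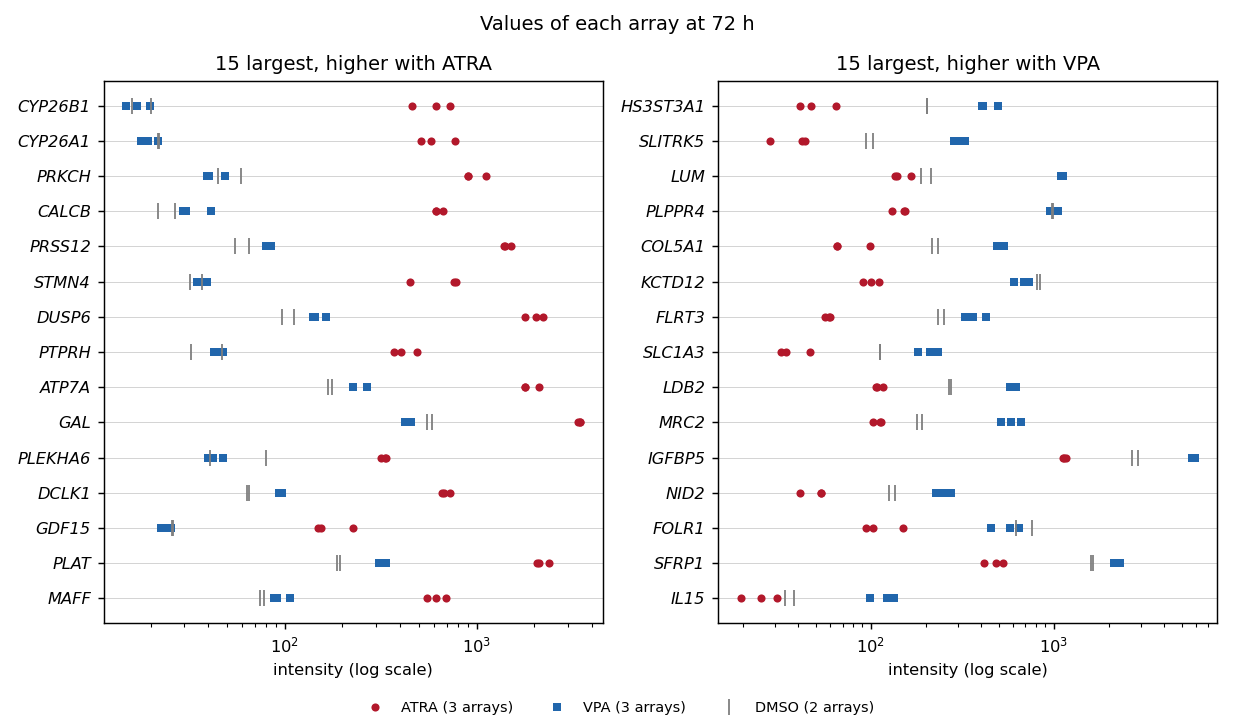
Intensity on a log axis for the 15 genes with the largest difference in each direction, with 1 point per array for ATRA (n = 3), VPA (n = 3) and DMSO (n = 2) at 72 h. Separate ATRA and VPA arrays were a condition for the genes shown, and CYP26B1 and CYP26A1 have the widest gaps.

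Genes of the neuronal cytoskeleton and growth cone were higher with ATRA in 16 of 31 measured members, higher with VPA in 3, and 12 did not pass, with a median of 0.31. DCX (doublecortin), a microtubule protein of migrating neurons, read 1434, 1372 and 1596 with ATRA and 239, 282 and 244 with VPA, a difference of 2.52 ± 0.12 (adjusted p = 1.6e-14) with no overlap. DPYSL3, a growth cone protein of the CRMP family, was 1268 ± 109 against 372 ± 49.5 (SD, n = 3 each; 1.77 ± 0.09). TUBB2B, a neuronal beta-tubulin, differed by 1.03 ± 0.08, and NEFM, the medium neurofilament chain, by 0.31 ± 0.06 (adjusted p = 3.1e-04). GAP43, the growth cone protein often used as a marker of differentiation, read 2743, 2473 and 2756 with ATRA and 2861, 2868 and 2833 with VPA and did not pass (-0.10, 95% interval -0.24 to 0.03). VIM (vimentin), an intermediate filament of immature and mesenchymal cells, was higher with VPA at -0.61 ± 0.11, and at -0.39 in the covariate fit. DPYSL4, at 0.94, lost its call when probe sets were averaged.

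Synaptic vesicle and exocytosis genes were higher with ATRA in 9 of 27 measured members and with VPA in 3, and 15 did not pass (median 0.20). SYT11, a synaptotagmin, differed by 1.26 ± 0.09, SYNGR3, a synaptic vesicle protein, by 0.98 ± 0.20, STX1A, the membrane fusion protein syntaxin, by 0.70 ± 0.13, SYNJ1 by 0.70 ± 0.09 and RAB3A by 0.52 ± 0.14, the last of which did not pass in the covariate fit. STX1A was 0.42 in that fit, and SYNJ1 0.37 as the mean of its probe sets. Of the voltage-gated channels, 5 of 32 were higher with each agent, or 3 with ATRA and 4 with VPA in the covariate fit. The largest channel difference was CACNA2D2, a calcium channel subunit higher with VPA at -1.45 ± 0.11. Of 32 neurotransmitter receptors, 7 were higher with ATRA and 1 with VPA, and in the covariate fit 2 were higher with ATRA. Without the first ATRA array or the second VPA array 4 were higher with ATRA, and without the first VPA array 3. The serotonin receptors went both ways, with HTR2B at 0.89 ± 0.13 and HTR3A at -0.78 ± 0.19.

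Of 19 measured neuropeptides, 7 were higher with ATRA and 3 with VPA, or 7 and 5 in the covariate fit. Galanin read 3399, 3457 and 3477 with ATRA and 438, 453 and 423 with VPA, a gap of 7.85-fold. VIP, vasoactive intestinal peptide, differed by 0.86 ± 0.07, CARTPT by 0.78 ± 0.17 and CRH by 0.27 ± 0.06, all higher with ATRA. NPY, the peptide co-released by sympathetic neurons, went the other way, with 3257, 2754 and 2664 on the ATRA arrays and 6240.3, 6494 and 6163 on the VPA arrays (-1.13 ± 0.07; adjusted p = 1.0e-11). Of 12 granins and prohormone-processing genes, 7 were higher with ATRA and 3 with VPA (median 0.33), where the shares over all genes were 12.3% and 20.9%. VGF, a secreted granin-like protein, differed by 1.71 ± 0.13, and SCG5, the chaperone of a prohormone convertase, by 1.46 ± 0.11. The chromogranins were opposed. CHGB read 1532, 1327 and 1385 with ATRA and 569, 546 and 741 with VPA (1.20 ± 0.10), while CHGA read 3858, 3776 and 4126 with ATRA and 6913, 6842 and 7694 with VPA (-0.87 ± 0.09). Neither pair of groups overlapped. The amidating enzyme PAM was higher with VPA at -0.93 ± 0.10.

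Of 15 measured enzymes and transporters of catecholamines, 4 were higher with ATRA and 3 with VPA, and 8 did not pass. These counts were 6 and 1 under the second quantile normalization and 4 and 1 in the covariate fit, and 1 was higher with VPA without the third VPA array. The first and central enzymes, TH and DDC, did not pass, TH with 178, 153 and 162 against 139, 144 and 175 (0.11, 95% interval -0.23 to 0.45) and DDC at 0.11, which passed at 0.23 under the second quantile normalization. The noradrenaline transporter SLC6A2 was higher with ATRA at 1.36 ± 0.11 (0.84 as the mean of its probe sets), as were PNMT, which makes adrenaline, at 1.33 ± 0.15, and the vesicular transporter SLC18A1 at 1.31 ± 0.14. Its relative SLC18A2 was higher with VPA, reading 188, 229 and 245 with ATRA and 461, 541 and 503 with VPA (-1.19 ± 0.13). The 2 vesicular transporters thus differed in opposite directions, each with separate groups. DBH, which makes noradrenaline, was -0.35, a call lost under the second quantile normalization, in the covariate fit and without the third VPA array (-0.30).

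Among transcription factors of the sympathetic lineage, 4 of 14 were higher with ATRA, 5 with VPA and 5 did not pass. HAND1 read 1313, 1301 and 1542 with ATRA and 3641, 3515 and 3365 with VPA (-1.34 ± 0.10), and GATA3 read 1946, 2084 and 2171 against 4301, 4071 and 5329 (-1.14 ± 0.10). Every VPA array was above every ATRA array in both. The neuroblastoma oncogene MYCN was 4939 ± 238 with ATRA and 6601 ± 90.3 with VPA (SD, n = 3 each; -0.42 ± 0.07), and the difference was -1.29 as the mean of its probe sets and -0.27 after the second quantile normalization. ISL1 was -0.46 ± 0.09. TLX2 at 1.03 ± 0.09 and TBX2 at 0.74 ± 0.12 were higher with ATRA, and so was PHOX2A at 0.32, whose call was lost in the covariate fit. GATA2 did not pass at -0.05.

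Receptors for neuronal growth factors were divided between the agents. RET, the receptor tyrosine kinase of the GDNF family, read 1685, 1756 and 1676 with ATRA and 891, 918 and 845 with VPA (0.95 ± 0.13; adjusted p = 3.0e-06). Its co-receptor GFRA2 was higher with VPA, at 179, 255 and 189 with ATRA and 418, 467 and 469 with VPA (-1.13 ± 0.13). The sorting receptor SORL1 was also higher with VPA at -0.80 ± 0.16. NTRK2, the receptor of BDNF, did not pass at 0.19 (95% interval -0.11 to 0.49). Of 11 measured receptors of the neurotrophin and GDNF families, 3 were higher with ATRA and 4 with VPA.

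Feedback regulators of the ERK pathway, which are transcribed when ERK is active and then restrain it, were higher with ATRA in 7 of 15 measured members and with VPA in 1, with a median of 0.35. After DUSP6 came IER3 at 1.77 ± 0.13, PHLDA1 at 1.14 ± 0.13, DUSP4 at 1.00 ± 0.10 and SPRY4 at 0.67 ± 0.09. DUSP7 was higher with VPA at -0.88 ± 0.16. SPRY4 and DUSP7 were 0.32 and -0.44 as means of their probe sets. Of 26 immediate early genes, 10 were higher with ATRA and 2 with VPA, with 5 on the ATRA side in the covariate fit. EGR1 was 0.50, with overlapping groups and no call in the covariate fit, whereas FOS at -0.81 ± 0.15 and the synaptic plasticity gene ARC at -1.03 ± 0.17 were the members higher with VPA. Protein kinase C isoforms were opposed: PRKCH had the difference given above, and PRKCA, the classical alpha isoform, read 279, 365 and 369 with ATRA and 1276, 1256 and 1282 with VPA (-1.92 ± 0.10; adjusted p = 9.9e-14), or -0.79 as the mean of its probe sets. In this family of 12 measured genes 1 was higher with ATRA and 5 with VPA, a count of 2 under the second quantile normalization.

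Cell cycle genes were higher with VPA as a group. Of 47 measured G2 and mitosis genes, 38 were higher with VPA, none with ATRA, and 9 did not pass, with a median of -0.47, or -0.33 after the second quantile normalization. Of 43 DNA replication genes, 33 were higher with VPA and 1 with ATRA, with a median of -0.42, or -0.29 after that step. For comparison, 20.9% of all genes were higher with VPA. CDC7, the kinase that fires replication origins, read 518, 481 and 653 with ATRA and 1296, 1259 and 1265 with VPA (-1.22 ± 0.10). AURKB, the Aurora kinase of chromosome segregation, read 190.2, 184 and 173 against 326, 381 and 402 (-1.01 ± 0.13). The groups were separate in both. The replication factors MCM10 at -1.05 ± 0.13, RFC2 at -0.92 ± 0.20 and CDC6 at -0.86 ± 0.15 and the mitotic genes KIF14 at -0.87 ± 0.11, CENPA at -0.78 ± 0.08 and PLK1 at -0.78 ± 0.17, the last not past the threshold in the covariate fit, followed. In that fit RFC2 was -0.54 and CDC6 -0.49. MKI67, the marker of dividing cells, was 759 ± 32.8 with ATRA and 1108 ± 15.1 with VPA (SD, n = 3 each; -0.55 ± 0.09). In such whole cultures, fewer dividing cells and less of these RNAs per cell cannot be told apart.

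Genes of the transition into S phase numbered 6 of 20 higher with VPA and 2 with ATRA (1 in the covariate fit, 0 without the first ATRA or the first VPA array and 1 without the second or the third VPA array), among them TFDP1 at -0.69 ± 0.09, CDK4 at -0.54 ± 0.10 (-0.34 in the covariate fit) and CDK2 at -0.58 ± 0.14. CDK inhibitors and growth arrest genes were split, with 4 of 19 higher with ATRA and 8 with VPA. CDKN1A (p21), which arrests the cycle and is often induced by deacetylase inhibitors, read 398, 280.5 and 334 with ATRA and 97.0, 194 and 98.8 with VPA (1.43 ± 0.19). The second VPA array was well above the other VPA arrays and below every ATRA array. CCNG2 was higher with ATRA at 0.78 ± 0.10, and it and CDK2 lost their calls when probe sets were averaged. BTG1 at -0.94 ± 0.12, TOB1 at -0.75 ± 0.09 and CCNG1 at -0.52 ± 0.07 were higher with VPA. CDKN1B (p27) did not pass at 0.04. Of 35 MYC targets and ribosome biogenesis genes, 20 were higher with VPA and none with ATRA, a count of 11 under the second quantile normalization. They included CAD at -0.71 ± 0.15, the start of pyrimidine synthesis, and ODC1 at -0.57 ± 0.09, the start of polyamine synthesis. In the MYC network itself, of 11 measured genes, 1 was higher with ATRA, 4 were higher with VPA and 6 did not pass. The count with VPA was 1 under the second quantile normalization. The gene higher with ATRA was MNT, a MYC antagonist, at 1.04 ± 0.11.

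Among genes higher with VPA, HS3ST3A1, which sulfates heparan chains, had the largest difference, reading 41.2, 64.9 and 47.0 with ATRA and 497, 408 and 405 with VPA (-3.09 ± 0.14; adjusted p = 1.3e-14). SLITRK5, a synaptic adhesion protein, read 43.9, 42.1 and 28.2 against 284, 328 and 300.5 (-2.99 ± 0.14; adjusted p = 1.3e-14). LUM (lumican), a collagen-binding proteoglycan, read 135, 139 and 165 against 1111, 1096 and 1118 (-2.92 ± 0.09; adjusted p = 7.1e-18). No array overlapped, as the choice of these genes required, and the 3 VPA values for LUM were within a few percent of each other. COL5A1, a fibrillar collagen chain, read 65.7, 65.5 and 98.9 with ATRA and 515, 536 and 489 with VPA (-2.75 ± 0.13, and -1.48 as the mean of its probe sets), and IGFBP5, a secreted binder of insulin-like growth factors, read 1118, 1138 and 1165 against 5843, 5716 and 5903 (-2.35 ± 0.11). Both kept the groups apart. Others of the 15 were PLPPR4 at -2.80, the GABA-B receptor partner KCTD12 at -2.74, the adhesion protein FLRT3 at -2.64, the glutamate transporter SLC1A3 at -2.45, LDB2 at -2.42, the collagen uptake receptor MRC2 at -2.40, the basement membrane protein NID2 at -2.33, the Wnt antagonist SFRP1 at -2.22 and the cytokine IL15 at -2.20. The folate receptor FOLR1 belongs with them at -2.27 ± 0.51, with the widest error of the set and no call in the covariate fit (-1.13). As means of probe sets MRC2 was -1.52 and IL15 -1.36.

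Across whole matrix lists, members differed in both directions. Of 24 collagen genes, 5 were higher with VPA and 4 with ATRA, shares near the 20.9% and 12.3% of all genes. The count with ATRA was 1 in the covariate fit and 2 under the second quantile normalization or without the second VPA array. COL13A1, a transmembrane collagen, was higher with ATRA at 2.56 ± 0.20, while COL18A1 at -1.28 ± 0.17, COL3A1 at -1.24 ± 0.16 and COL6A2 at -1.01 ± 0.18 were higher with VPA. As means of probe sets these were 1.51, for COL13A1, and -0.72 and -0.63, for COL3A1 and COL6A2. Of 38 other matrix genes, 12 were higher with VPA and 9 with ATRA, and the median of 0.10 became -0.14 without the dimmest 33.3% of genes. LAMA4, a laminin chain, was higher with ATRA at 2.35 ± 0.18, or 0.69 as the mean of its probe sets, as was SERPINE2, an inhibitor of plasminogen activators, at 1.49 ± 0.10. Integrins were divided, with ITGA8 at -1.59 ± 0.18 and ITGAV at -0.81 ± 0.12 higher with VPA and ITGA6 at 0.76 ± 0.10 higher with ATRA, a call lost when probe sets were averaged. Axon guidance genes were divided as well, with 9 of 38 higher with ATRA and 10 with VPA, beside 12.3% and 20.9% of all genes. The repulsive semaphorins SEMA3F at -2.01 ± 0.16 (-0.97 as the mean of its probe sets) and SEMA3A at -1.11 ± 0.13 and the adhesion protein CNTN1 at -1.27 ± 0.21 (-0.78 in the covariate fit) were higher with VPA. EFNB2, an ephrin, at 1.24 ± 0.09 and NCAM2 at 1.07 ± 0.12 were higher with ATRA.

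The RNAs of some targets of VPA themselves differed between the agents. Of 15 measured deacetylases, 3 were higher with VPA, a share near the 20.9% of all genes, and none with ATRA. HDAC1, a class I deacetylase, read 654, 680.4 and 771 with ATRA and 1211, 1358 and 1428 with VPA (-0.92 ± 0.10; adjusted p = 8.4e-08), and HDAC9, a class IIa member, read 226, 221 and 227 against 572, 626 and 476 (-1.30 ± 0.11; adjusted p = 1.9e-09). VPA arrays were higher in both without overlap. The DMSO mean at 72 h was 1271 for HDAC1, close to VPA, and 358 for HDAC9, between the agents. HDAC3 was -0.43 ± 0.09, or -0.28 after the second quantile normalization, and the other 12 of 15 measured deacetylases did not pass. Among them was HDAC2 at -0.00, which the second quantile normalization moved to 0.15 with an adjusted p of 0.049. Of 14 acetyltransferases and acetyl readers, 2 were higher with each agent, or 5 with ATRA and 2 with VPA under the second quantile normalization. Leaving out any 1 array other than the second ATRA or the first VPA array took 1 or both of these counts to 1. KAT6B at 1.49 ± 0.09 (0.90 as the mean of its probe sets) and HAT1 at -0.55 ± 0.09 were the largest in their directions. Histone genes mostly did not pass, with 8 of 54 higher with ATRA and 4 with VPA. H2BC21 at 1.06 ± 0.13 led the first and H3-3B at -0.61 ± 0.11 (-0.38 in the covariate fit) the second.

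Genes reported in other systems to respond to deacetylase inhibitors were divided between the agents, with 6 of 17 higher with VPA and 4 with ATRA (median -0.09). MT1X, a metallothionein that binds zinc and copper, read 84.4, 78.0 and 88.6 with ATRA and 224, 234 and 228 with VPA (-1.44 ± 0.14), and CLU (clusterin), an extracellular chaperone, read 1406, 1503 and 1343 against 3468, 3127 and 3648 (-1.27 ± 0.09). Both were higher on every VPA array. Of a list of 10 measured genes, the metallothioneins and the zinc exporter SLC30A1, 5 were higher with VPA and none with ATRA, among them MT2A at -1.26 ± 0.14 and SLC30A1 itself at -0.82 ± 0.12. Antigen presentation and interferon-inducible genes were higher with VPA in 12 of 34 members and with ATRA in 4, where the shares over all genes were 20.9% and 12.3%. The count with ATRA was 1 in the covariate fit and without the second ATRA or the third VPA array, and 2 without the second VPA array. HLA-C read 451, 415 and 469 with ATRA and 1194, 1217 and 1333 with VPA (-1.49 ± 0.09), OAS1 was -1.24 ± 0.13, ISG15 -1.20 ± 0.15 and HLA-E -1.16 ± 0.11. IRF9, a subunit of the interferon-activated factor, was higher with ATRA at 1.10 ± 0.12. Cross-hybridisation among near-identical family members, as in HLA, metallothionein, histone and AKR1C genes, was not tested.

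Genes of the integrated stress response and the endoplasmic reticulum were higher with ATRA in 13 of 31 members and with VPA in 6, a count of 3 under the second quantile normalization and without the first ATRA or the third VPA array. GDF15 read 154, 226 and 149 with ATRA and 22.8, 25.5 and 24.9 with VPA, and SLC7A11, the cystine importer, read 282, 319 and 335 against 75.7, 72.4 and 87.4 (1.98 ± 0.14). As means of their probe sets the differences of these genes were 1.37 and 1.14. CHAC1, which degrades glutathione, was 1.45 ± 0.15 and the tryptophan ligase WARS1 1.22 ± 0.10. PSAT1, an enzyme of serine synthesis, ran opposite, at 186, 151 and 258 with ATRA and 516, 638 and 509.9 with VPA (-1.51 ± 0.28, and -0.74 in the covariate fit). Of 21 genes linked to oxidative stress and NRF2, 7 were higher with VPA (4 under the second quantile normalization) and 3 with ATRA. GSR at -0.77 ± 0.17 (-0.43 in the covariate fit) and GCLM at -0.57 ± 0.09, both of glutathione metabolism, were higher with VPA, and the reductases AKR1C1 at 0.83 ± 0.15 and AKR1C2 at 0.78 ± 0.13 with ATRA. As means of probe sets AKR1C1 and AKR1C2 were 0.52 and 0.34.

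Respiratory chain genes were higher with VPA in 21 of 44 members and with ATRA in none, with a median of -0.20. Under the second quantile normalization 11 were higher with VPA and 1 with ATRA, and the median was -0.04. Of all genes 20.9% were higher with VPA, and of the brightest 33.3% of genes 38.7%, with a median of -0.16. What part level had in the differences of this list was not tested. NDUFA10 of complex I at -0.71 ± 0.11, SDHD of complex II at -0.69 ± 0.10 and CYC1 of complex III at -0.69 ± 0.14 were the largest, and SDHD lost its call when probe sets were averaged. Sterol synthesis genes differed little, with 2 of 20 higher with each agent, and the ATRA side held 5 under the second quantile normalization, and 0 in the covariate fit and when any 1 array other than the second ATRA array was left out. Of 30 genes of fatty acid metabolism, 4 were higher with ATRA and 5 with VPA, beside 12.3% and 20.9% of all genes. The counts became 7 and 3 under the second quantile normalization. As means of probe sets these counts were 2 and 7, and 3 were higher with VPA without the second ATRA array. The adipogenic receptor PPARG at 1.17 ± 0.15 (0.61 with a pseudocount of 32) and the ligase ACSL1 at -0.71 ± 0.10 were the largest in their directions.

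Members of the Notch, Wnt and insulin-like growth factor pathways differed in both directions. DLK1, a Notch-related surface protein of immature chromaffin cells, read 4065, 5031 and 3771 with ATRA and 11804, 11573 and 12175 with VPA (-1.48 ± 0.08; adjusted p = 3.5e-13), with no overlap. The Notch ligand JAG2 was -1.01 ± 0.14 and the target HES1 -0.75 ± 0.13 (-0.38 as the mean of its probe sets), both higher with VPA, while the related target HEY1 was higher with ATRA at 1.08 ± 0.11. Of 18 Notch genes, 1 was higher with ATRA and 5 with VPA, beside 12.3% and 20.9% of all genes. The Wnt receptors FZD7 at 1.74 ± 0.10, higher with ATRA, and FZD6 at -1.31 ± 0.14 and FZD2 at -1.13 ± 0.14, higher with VPA, were opposed, and 4 of 24 Wnt genes were higher with ATRA and 8 with VPA. The former count was 1 in the covariate fit and 2 without the second ATRA or the second VPA array. Binding proteins for insulin-like growth factors followed the same pattern, with IGFBP4 at -1.55 ± 0.10, IGFBP2 at -1.44 ± 0.14 and IGFBP3 at -0.76 ± 0.12 on the VPA side and IGFBP6 at 1.55 ± 0.19 on the ATRA side. BCL2, which protects from apoptosis, read 526, 415 and 579 with ATRA and 202, 212 and 170.1 with VPA (1.37 ± 0.12, and 0.37 as the mean of its probe sets). Of 25 genes of its family and of apoptosis 5 were higher with ATRA and 6 with VPA, or 6 and 3 under the second quantile normalization and 3 and 4 in the covariate fit.

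Markers of the labelled cell type and of other cell types were read on the same arrays. The summed intensity of the 6 measured noradrenergic neuroblast markers was 9641, 10005 and 10100.2 with ATRA and 13486, 13350.5 and 14591 with VPA. The neuroblastoma markers were thus present in both groups, although HAND2 lay under the median of an array. MYCN gave the most to the sum, at 4939 and 6601. Of the 4 markers that passed, MYCN, GATA3 and DBH were higher with VPA and PHOX2A with ATRA, at 2117 against 1693. All 3 measured Schwann and glial markers and all 4 haematopoietic markers lay under the lowest array median of 53.15 in both groups. The Schwann sum was 91.5 to 99.2 with ATRA and 73.9 to 82.3 with VPA, and the haematopoietic sum 104.5 to 110.9 and 84.3 to 102.9. The 5 mesenchymal markers summed to 2019 to 2212 with ATRA and 1844 to 2049 with VPA, of which TWIST1 gave the most, at 1630.0 and 1386. The 4 epithelial markers summed to 248.4 to 315.2 with ATRA and 101.7 to 114.6 with VPA, and 3 of them lay under that median in both groups. The other, the keratin KRT19, was 207 ± 42.7 with ATRA and 46.5 ± 6.71 with VPA (SD, n = 3 each; 2.12 ± 0.17). The longer epithelial, Schwann and haematopoietic lists had 6 of 17, 5 of 11 and 4 of 15 members higher with ATRA and none with VPA. In the covariate fit these were 3, 2 and 1. The epithelial count was 3 without the second ATRA or the third VPA array, the Schwann count 3 without the second VPA array, and the haematopoietic count 1 without the first ATRA or the first VPA array and 2 without the second ATRA or the third VPA array. In these lists 12, 7 and 7 of the members had a lower group mean under the lower quartile of the arrays. What part other cells had in any difference was not tested.

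The vehicle and combination arrays, outside the comparison, give further levels of each gene to set beside those of the agents. Among the 137 genes at least 2-fold higher with ATRA, the DMSO mean at 72 h lay below both agents for 82 and between them for 54, and the ATRA mean was the farther from DMSO for 132. Among the 249 higher with VPA, the DMSO mean lay between the agents for 188, above both for 50 and below both for 11. The ATRA mean was again the farther from DMSO for 177 of these. PLPPR4 is an example, with 130.1, 154 and 151 with ATRA and 1042, 953 and 1051 with VPA beside 979.8 and 986 with DMSO. For LUM, DMSO read 214 and 187, and the VPA mean was the farther from it. For COL5A1, DMSO read 233 and 217. There ATRA was somewhat the farther on the log2 scale (ATRA minus DMSO -1.57, DMSO minus VPA -1.19). In both genes the DMSO arrays lay below the VPA arrays and above the ATRA arrays. These are counts of levels with no test, and DMSO at 72 h has 2 arrays.

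Most replication, mitotic and respiratory chain genes that passed were higher in the vehicle than with either agent alone. The DMSO mean lay above both agents for 36 of the 38 G2 and mitosis genes that passed, for 30 of the 34 DNA replication genes and for 19 of the 21 respiratory chain genes. It did so for 50 of the 249 genes at least 2-fold higher with VPA. That is an unlike set, as these lists held only 1, 2 and 0 such genes, in the order given. The share over all genes that passed was not counted, so the list counts have no background here. CDC7 was at 1462 with DMSO, 1273 with VPA, 551 with ATRA and 465 with both. CHGA followed the same order, from 9249 with DMSO through 7149.6 and 3920.0 to 2824 with both.

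With both agents together, the combination mean lay closer to ATRA for 126 of the 137 genes higher with ATRA than with VPA and closer to VPA for 11. It was above both agents, and so closer to ATRA by order alone, for 74. CALCB read 2379, 2088 and 2744 with both agents, above the ATRA arrays, and GDF15 read 1080.2, 1193 and 1494. RARB was at 69.3 with both against 33.1 with ATRA alone. For the 249 genes higher with VPA, the combination lay between the agents for 209, closer to ATRA for 137 and to VPA for 112. NPY with both agents read 5875, 6158 and 6679, near VPA, whereas DLK1 read 4621, 4922 and 4449.9, near ATRA. All 38 of the mitotic genes that passed, each lower with ATRA, were closer to ATRA, beside 2253 of all 3940 genes that passed. For genes lower with ATRA, a combination mean below both agents is closer to ATRA by order alone. MKI67 is an example, at 567 with both, 759 with ATRA and 1108 with VPA. How many of the 38 lay below both was not counted.

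**Figure D4:**
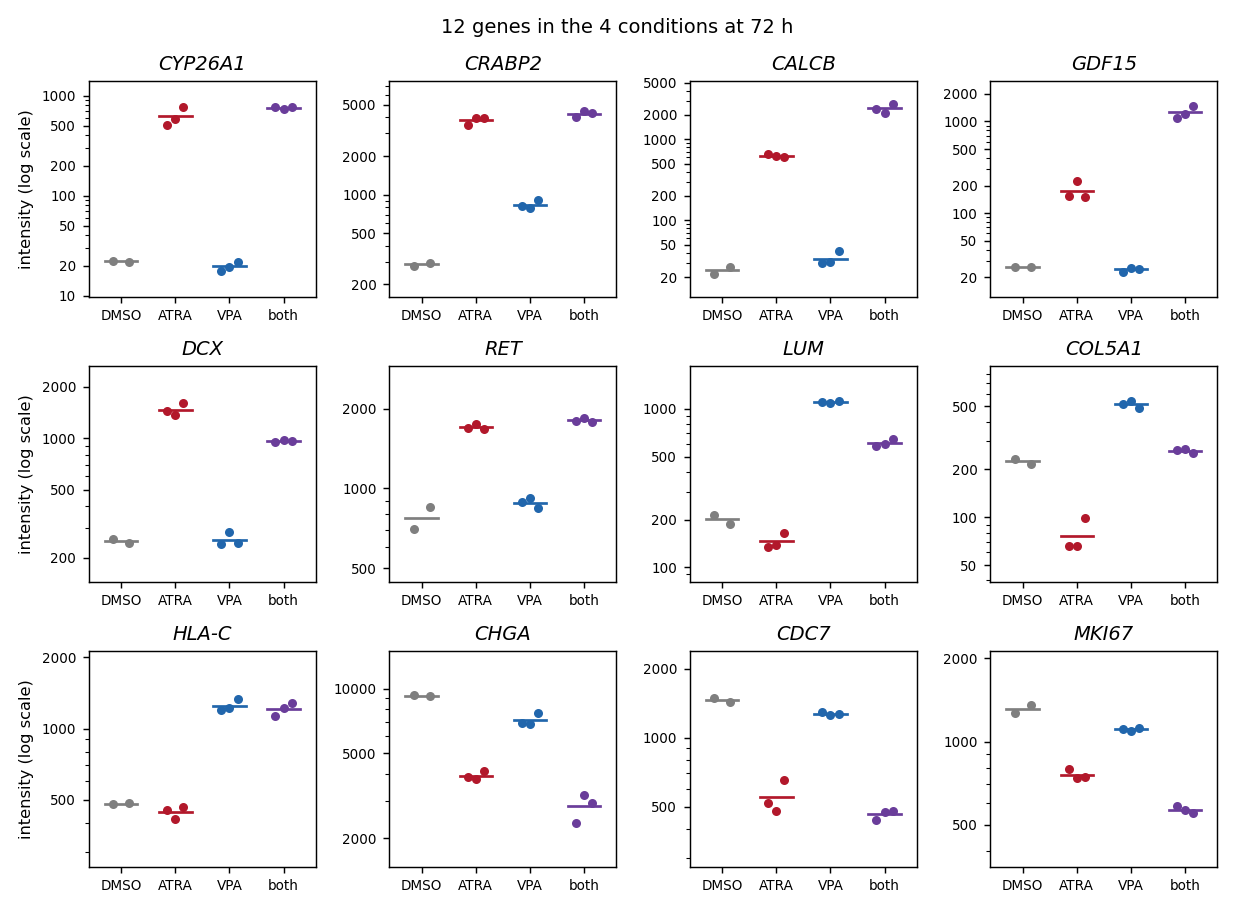
Intensity on a log axis of 12 genes at 72 h in DMSO (n = 2), ATRA, VPA and both agents (n = 3 each), with 1 point per array and a line at the mean. CALCB and GDF15 are highest with both agents, LUM and COL5A1 are highest with VPA alone, and CHGA, CDC7 and MKI67 are highest with DMSO.

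Fewer genes differed between the agents at the earlier times. At 24 h 3288 genes passed (27.7%), 1665 higher with ATRA (14%) and 1623 with VPA (13.7%), and at 6 h 2011 passed (16.9%), 879 (7.4%) and 1132 (9.53%). Of the 137 genes at least 2-fold higher with ATRA at 72 h, 114 were higher with ATRA at 24 h and 50 at 6 h, and 2 and 15 were higher with VPA. Of the 249 higher with VPA, 184 were so at 24 h and 111 at 6 h, and 9 and 8 were higher with ATRA. A test of the change of the difference called 2869 genes between 24 h and 72 h (24.1%) and 3008 between 6 h and 72 h (25.3%). In the first of these tests 992 genes (8.35%) moved towards ATRA and 1877 (15.8%) towards VPA, a split that the second quantile normalization turned to 1338 and 889. In the second, 1157 (9.74%) moved towards ATRA and 1851 (15.6%) towards VPA, against 1529 and 1106 after that normalization. In the covariate fit the count between 24 h and 72 h was 716, and the 3'/5' control ratio ran the other way at 24 h, 0.62 to 1.30 with ATRA and 1.22 to 2.33 with VPA.

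Genes differed in when the agents parted. PRKCH was at 4.05 ± 0.12 at 6 h, nearly its full difference, and RET was at 1.32 ± 0.13 at 6 h and 1.97 ± 0.13 at 24 h. CYP26A1 moved from 0.53 ± 0.17 at 6 h to 2.99 ± 0.17 at 24 h and 4.90 ± 0.17 at 72 h. STMN4 and CALCB parted late, from 0.27 ± 0.16 and 0.70 ± 0.11 at 24 h to 4.09 ± 0.16 and 4.20 ± 0.11 at 72 h. Both are neuronal genes, and each change between these times passed (STMN4 3.82 ± 0.22, adjusted p = 2.6e-11; CALCB 3.50 ± 0.16, adjusted p = 1.5e-13). SYNGR3 turned, from -1.32 ± 0.20 at 24 h to 0.98 ± 0.20 at 72 h, and so did SERPINE2, from -0.89 ± 0.10. LGR5, a stem cell receptor of Wnt signalling, turned the other way, from 1.29 ± 0.14 to -1.29 ± 0.14. The large early difference of HTR2B, 3.28 ± 0.13 at 24 h, shrank to 0.89.

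Counts of members called at each time were as follows. Synaptic vesicle genes numbered 2 higher with ATRA and 8 with VPA at 24 h, against 9 and 3 at 72 h, and 8 of the 27 passed the test of change between these times, beside 24.1% of all genes. Sterol synthesis genes numbered 14 of 20 higher with ATRA at 24 h and none with VPA, against 2 and 2 at 72 h, and 14 of them passed the test of change. The mitotic genes were already lower with ATRA at 24 h in 39 of 47, but at 6 h 12 of them were higher with ATRA and none with VPA. The respiratory chain genes numbered 2 higher with ATRA and 3 with VPA at 24 h, against 0 and 21 at 72 h (a count of 11 under the second quantile normalization), and 12 of the 44 passed the test of change, a share near that of all genes.

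**Figure D5:**
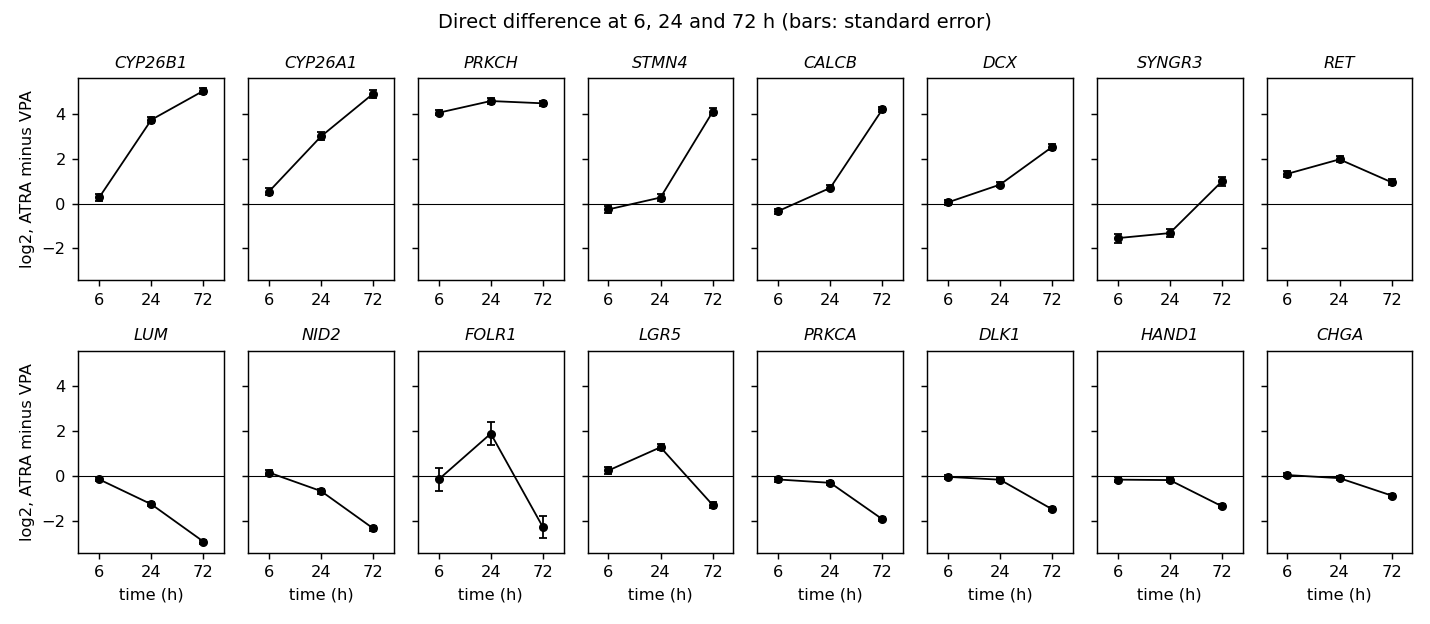
Log2 difference, ATRA minus VPA, at 6 h, 24 h and 72 h for 16 genes, with bars of 1 standard error from the fit (n = 3 arrays per agent and time). PRKCH is apart from 6 h on, STMN4 and CALCB part between 24 h and 72 h, and SYNGR3 and LGR5 cross 0.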

How the data were processed

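Each deposited value is the linear intensity of a probe set. RMA is named in the submitters' processing notes as the authors' method, and its version is not given in the sources used here. Of 22930 probe sets on the array, 19230 with exactly 1 gene symbol were used. Several symbols were given for 125 and none for 3292, and 283 with a symbol but without an ordinary probe set identifier, controls included, were not used. The brightest probe set stood for its gene, 11882 in all, of which 4416 had more than 1. Symbols of 11872 genes were matched by gene identifier to a RefSeq table.

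Intensity plus 1 was taken to log2. Group means of the 27 arrays of the 9 treated groups were fitted by lmFit and moderated by eBayes (limma 3.58.1, R 4.3.3), with 18 degrees of freedom from the residuals and 5.89 from the prior, leaving the vehicle arrays out of the fit. Contrasts were ATRA minus VPA at 72 h, and that difference at 72 h against 24 h and against 6 h. The Benjamini-Hochberg adjustment ran over all genes, with a threshold of 0.05. The number of arrays and signal over background limit the precision. The procedure was tested on simulated data.

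Named genes were the 15 largest differences in each direction among genes that passed with separate groups, the 5 largest of each list, every member of a list with under 20 measured members, the 6 largest in each direction of the time contrasts, and genes always taken up: CYP26A1, CYP26B1, CRABP2, RARB, DHRS3, RET, NTRK2, HDAC1, HDAC2, HDAC9, MYCN, TH, DBH, CDKN1A, NEFM, GAP43 and MKI67. Other genes that the rule takes up were not analysed here. The comparison, lists and rule were chosen with earlier results of these data known.

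Alternatives were a replicate block, the compared arrays alone, all 12 groups, a pseudocount of 32, leaving out the dimmest 33.3% of genes, the mean of probe sets, a second quantile normalization, array weights, a robust prior with an intensity trend, a covariate for the 3'/5' ratio, a 2-fold minimum and leaving out each array. Replicate numbers did not pair the arrays: deviations of same-numbered ATRA and VPA arrays from their group means correlated at 0.001, -0.043 and -0.042 across genes.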

Additional observations from a re-analysis of the deposited data

Results flagged for a closer look

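The difference between ATRA and VPA itself differed between times, by a test of that change, for 2869 genes between 24 h and 72 h and for 3008 between 6 h and 72 h. Between 24 h and 72 h the largest moves towards ATRA were those of STMN4 (3.82 log2 units), CALCB (3.50), the tetraspanin TSPAN13 (2.67), SERPINE2 (2.39), SYNGR3 (2.30) and the neuronal endosome protein NSG1 (2.14). STMN4, a regulator of microtubules, went from 0.27 to 4.09, and TSPAN13 went from -0.32 to 2.35. The largest moves towards VPA were FOLR1 (-4.17), TAF9B (-2.84), EML4 (-2.59), LGR5 (-2.57), HTR2B (-2.39) and CDKAL1 (-2.29). FOLR1, a folate receptor, went from 1.90 at 24 h to -2.27 at 72 h, and TAF9B, a subunit of the transcription factor TFIID, from 1.45 to -1.39. EML4, a microtubule-binding protein, went from 1.25 to -1.34 and CDKAL1, a tRNA-modifying enzyme, from 1.09 to -1.20 (-0.74 in the covariate fit). In the covariate fit the 72 h differences of FOLR1 (-1.13), TAF9B (-0.20) and EML4 (-0.30) did not pass, and that of TAF9B also did not pass when the pseudocount was 32 (-0.78) or without the first ATRA array (-1.23) or the second VPA array (-1.17).

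Between 6 h and 72 h the largest moves towards ATRA were CYP26B1 (4.76), CALCB (4.54), CYP26A1 (4.37), STMN4 (4.35), PRSS12 (3.82) and TSPAN13 (3.22). Towards VPA they were LUM (-2.77), ATXN1 (-2.66), FLRT3 (-2.61), PLPPR4 (-2.56), NID2 (-2.49) and HS3ST3A1 (-2.37). LUM stood at -0.14 at 6 h and ATXN1, the ataxin of a spinocerebellar ataxia, at 0.68, against -2.92 and -1.98 at 72 h. The 3'/5' control ratio moved with agent and time as well, and its part in these changes was not tested beyond the covariate fit.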

How the results depend on the processing

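The count of 3940 genes at 72 h ran from 3054, in the fit with a covariate for the 3'/5' ratio, to 4006, with an intensity trend and a robust prior, over the alternatives that kept every fold size, and from 3304 to 3997 when 1 array of the comparison was left out. The counts for 72 h against 24 h and against 6 h ran from 2377 to 3166 and from 2631 to 3257 when 1 array was left out. With a replicate block the 3 counts were 3874, 2771 and 2934, although the numbers do not pair the arrays. A minimum of 2-fold left 386, 327 and 523 genes, which the construction of that rule sets. The covariate left 716 genes for 72 h against 24 h; the cause was not tested. HDAC2 alone among 435 named genes changed side of the threshold with a change of sign, from -0.00 to 0.15 (0.1486) after the second quantile normalization. Sign changes of differences that did not pass are not counted in this. The median of the neurotrophin and GDNF family receptors, for example, went from -0.04 to 0.03 without the first VPA array. Of the named genes, 398 stayed on the same side of the threshold under that normalization, 392 with the covariate, 406 with the mean of probe sets, 412 with the compared arrays alone and 430 with a pseudocount of 32. The difference of 52 named genes moved by more than 1.5 times with that pseudocount and of 67 with the mean of probe sets, out of 271 that passed. With that pseudocount COL13A1 was 1.59, LAMA4 1.55, IGFBP6 0.98, PNMT 0.82, NCAM2 0.59, DHRS3 0.57, CARTPT 0.40 and RARB 0.39. On the VPA side IL15 was -1.39, ISG15 -0.72, JAG2 -0.64 and SEMA3A -0.57. All of these still passed. Of 90 list counts, 24 moved by more than 1.5 times under the second quantile normalization and 19 with the covariate. Leaving out a combination array at 6 h that stood apart, chosen after seeing the data, gave 3977 genes.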
